A study of Mus musculus with 2 samples.

Results

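The 10 genes described here encode the platelet-derived growth factor (PDGF) ligands Pdgfa, Pdgfb and Pdgfc and 7 receptor tyrosine kinases, namely the PDGF receptors Pdgfra and Pdgfrb, the fibroblast growth factor (FGF) receptors Fgfr1 and Fgfr2, the hepatocyte growth factor receptor Met, the GAS6 receptor Axl and the insulin-like growth factor (IGF) receptor Igf1r. They were chosen by their symbols, and every probe set annotated to them was taken, 26 of 45037 once control probe sets were set aside, and 10 of the 18193 genes that the annotation lists. RNA was measured on Affymetrix GeneChip mouse genome arrays from HT22 cells, an immortalized mouse hippocampal nerve cell line. There were 2 arrays, of cells exposed to J147 for 1 h and of cells given the DMSO vehicle for 1 h, both plated the day before in medium that held 10% fetal calf serum. The title of the control sample names the DMSO vehicle, while its treatment label reads untreated. The sample labels give a J147 concentration of 10 mM and the methods of the study give 10 μM. With 1 array per condition nothing was replicated and no test can be made, and the compound and the culture that received it cannot be told apart.

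PDGF ligands are secreted as dimers that bring a pair of receptor chains together, and the paired kinase domains then phosphorylate each other and recruit adaptors of the RAS-ERK, PI3K-AKT and phospholipase C pathways. The A, B and C chains differ in the receptor they bind: all of them can engage PDGFRα, and the B chain is the principal ligand of PDGFRβ. FGF receptors, MET, AXL and the IGF1 receptor feed into much the same adaptors. In brain, Pdgfra is known as a marker of oligodendrocyte precursors and Pdgfrb as a marker of pericytes, and both are abundant in fibroblasts. Serum, which the culture medium held, is itself a source of PDGF and IGFs.

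Values are the deposited gcRMA intensities after each array was scaled to a median of 100. The 22545 probe sets that averaged above 100 were scored. The lowest value of the table, where intensities have no order, became 95.1 on the J147 array and 95.4 on the vehicle array. Of all probe sets, 46.0% on the J147 array and 46.3% on the vehicle array lay within 0.01 log2 units of it. Over the scored probe sets the SD of the log2 difference, J147 minus vehicle, was 0.18, and 18.9% had the same deposited value on both arrays, which the scaling turned into a fold of 0.997. Control probe sets had median log2 differences of 0.13 for hybridization spikes, -0.15 for labelling spikes and -0.63 for 18S rRNA. The labelled cell type was checked against marker genes. Of 8 neuronal markers 1, Tubb3, was above the lowest value, as were 6 of 7 fibroblast markers (Col1a1, Col1a2, Col3a1, Dcn, Fn1 and Thy1), 2 of 7 astrocyte markers (Gja1 and Slc1a3), 2 of 7 microglia markers (Tmem119 and Csf1r) and 0 of 5 endothelial markers. The numbers were 3 of 8 for pericyte and mural cell markers and 3 of 6 for oligodendrocyte precursor markers, and these 2 lists include Pdgfrb and Pdgfra themselves. Apart from these, the pericyte list was above the lowest value through Acta2 and Cspg4 and the precursor list through Cspg4 and Sox10, while defining markers such as Rgs5, Kcnj8 and Olig2 were at it on both arrays. Cspg4 had scaled intensities of 4353 for J147 and 4043 for vehicle, and Acta2 and Sox10 had equal deposited values on both arrays. Gja1 had 67738 for J147 and 65868 for vehicle, and Slc1a3 had 4601 for J147 and 4261 for vehicle. The 10 housekeeping genes of the list that are annotated here were above the lowest value (Actb, B2m, Gapdh, Gusb, Hprt, Pgk1, Sdha, Tbp, Tfrc and Ywhaz), and the 9 scored had a median log2 difference of 0.00. Gapdh was not among the 9. The count above the lowest value took in control probe sets, which include some for Gapdh and were never scored.

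None of the 9 genes that could be scored differed by as much as 1.5-fold between the arrays. Of the 26 probe sets, 19 were scored, covering 9 of the 10 genes, and the other 7 lay at the lowest value on each array. A rise of 1.5-fold or more with J147 was seen in 0 of the 19 and a drop of that size in 0, where 0.856% and 0.781% of all scored probe sets passed these limits. At 2-fold the shares of all scored probe sets were 0.0754% higher and 0.071% lower, again with 0 of the 19. Differences of that size are rare on these arrays, so 0 of 19 is near the background. The log2 differences ran from -0.48 to 0.33, with a median of -0.00 that equalled the median of all scored probe sets. Both medians are the value that scaling gives to probe sets with equal deposited values, so their equality says little. Deposited values were higher with J147 for 7 of the 19, lower for 9 and equal for 3. Of all 22545 scored probe sets, about 8740 were higher than a probe set of equal values and about 9618 lower. The split of the 19 was close to this.

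**Figure D1:**
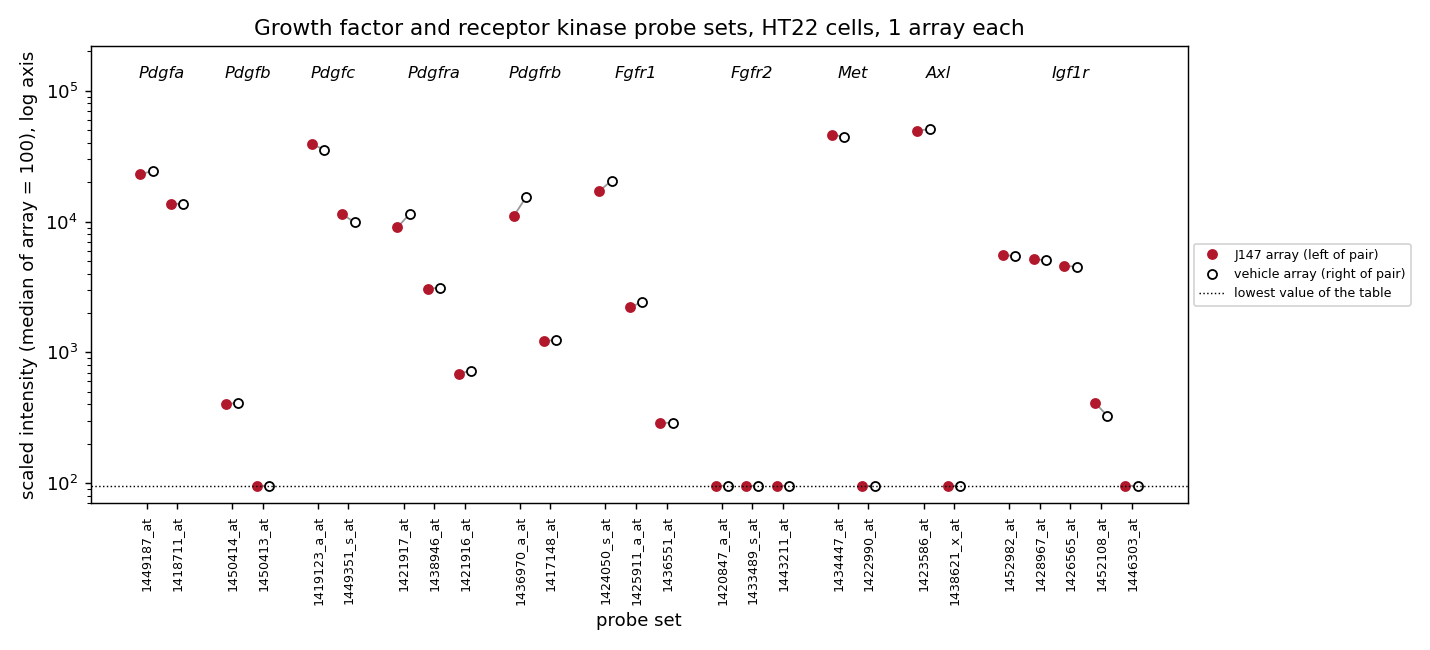
Scaled intensity (vertical log axis, array median of 100) of all 26 probe sets (horizontal axis, grouped by gene), with the J147 array as filled points left of the vehicle array as open points, 1 array each. A dotted line marks the floor of the table, at which all 3 Fgfr2 probe sets and 1 probe set each of Pdgfb, Met, Axl and Igf1r lie. Levels of different probe sets are not comparable with each other.

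The ligands differed little, and the only one with both probe sets higher on the J147 array was Pdgfc. Pdgfc encodes a PDGF chain whose CUB domain must be cleaved off before it can activate its receptor. Probe set 1419123_a_at had scaled intensities of 39214 for J147 and 35437 for vehicle, a fold of 1.11. Probe set 1449351_s_at had 11421 for J147 and 9832 for vehicle, a fold of 1.16. Both probe sets are annotated to the same transcript, so they are not independent evidence. To give a scale for such differences, each was compared with its 500 neighbours, the scored probe sets closest to it in mean level. The SD of the log2 differences of these neighbours was 0.13 for the first and 0.15 for the second, the Pdgfc differences were 0.15 and 0.22, and 83 and 55 of the 500 neighbours differed by at least as much.

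Pdgfa, the A chain, had 1 probe set slightly lower and 1 with equal values. Probe set 1449187_at had scaled intensities of 22964 for J147 and 24394 for vehicle, a log2 difference of -0.09 that 197 of its 500 neighbours reached or passed. Probe set 1418711_at had the same deposited value on both arrays, at scaled intensities of 13621 for J147 and 13664 for vehicle. Pdgfb, the B chain, was low. Its probe set 1450414_at had equal deposited values, at scaled intensities of 406 for J147 and 407 for vehicle, and 1450413_at lay at the lowest value of either array. Both Pdgfb probe sets carry 1 shared annotation accession, as do both Pdgfa probe sets.

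Promoter sequences from RefSeq, of build GRCm38.p6, were found for 7 of the 10 genes, 8 windows in all because Pdgfa has 2 annotated starts. There was none here for Pdgfb, Pdgfrb and Fgfr1. The upstream 250 bases of a window of each of 2 ligands are shown because Pdgfc was the ligand with both probe sets higher and Pdgfa because EGR transcription factors are known to act on its human counterpart. Capitals mark GC boxes (GGGCGG on either strand) in Pdgfa and a CArG box, the DNA element of the serum response factor, in Pdgfc.
Pdgfa, chr5:138994945-138995194, minus strand: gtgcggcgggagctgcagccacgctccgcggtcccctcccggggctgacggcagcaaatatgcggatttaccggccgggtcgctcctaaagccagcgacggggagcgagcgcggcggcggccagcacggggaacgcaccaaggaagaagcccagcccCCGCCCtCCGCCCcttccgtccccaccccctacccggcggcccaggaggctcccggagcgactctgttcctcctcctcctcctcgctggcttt
Pdgfc, chr3:81036166-81036415, plus strand: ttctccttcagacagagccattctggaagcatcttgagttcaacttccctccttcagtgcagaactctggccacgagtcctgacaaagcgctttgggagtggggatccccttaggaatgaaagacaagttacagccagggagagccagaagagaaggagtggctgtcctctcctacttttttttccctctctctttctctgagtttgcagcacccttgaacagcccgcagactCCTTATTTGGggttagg
The CArG box of Pdgfc spans positions -17 to -8 from the annotated start. It was looked for after the sequence had been read, on both strands, and 1.63% of all 32851 promoter windows of 300 bases hold one. None of the other 7 windows does. The EGR letters GCGGGGGCG and GCGTGGGCG, searched on both strands, were in none of the 8 windows, and in 2.91% and 0.612% of all windows. The cAMP response element TGACGTCA was in none of the 8 and in 1.79% of all. The AP-1 letters TGANTCA were in the Met window alone of the 8, at positions -54 to -48, and in 7.81% of all. GC boxes were found in the windows of Pdgfa, Met, Axl and Igf1r and in 35.7% of all, and a GC box can overlap the EGR letters. The windows reach no further than 250 bases before and 50 after the start, and a match in letters is no evidence of binding.

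Among the receptors, the largest drops on the J147 array were those of the brightest probe sets of Pdgfrb, Pdgfra and Fgfr1. Pdgfrb encodes PDGFRβ, the receptor of the B chain. Its probe set 1436970_a_at had scaled intensities of 10969 for J147 and 15271 for vehicle, which is 1.39-fold lower with J147, the largest difference of all 19. The log2 difference was -0.48 against an SD of 0.13 among its neighbours, and 3 of the 500 neighbours differed by at least as much. Of all 22545 scored probe sets, 345 had a more negative difference. The other Pdgfrb probe set, 1417148_at, had the same deposited value on both arrays, at scaled intensities of 1230 for J147 and 1234 for vehicle. The 2 probe sets of this gene thus gave different answers, and which of them followed the mRNA was not tested.

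Pdgfra encodes PDGFRα, the receptor that all 3 ligand chains can engage. Its probe set 1421917_at had scaled intensities of 9023 for J147 and 11423 for vehicle, 1.27-fold lower with J147. This log2 difference of -0.34 compares with an SD of 0.15 among its neighbours, of which 21 differed by as much or more. The other Pdgfra probe sets were closer to equality. Probe set 1438946_at had 3054 for J147 and 3128 for vehicle, and 1421916_at had 685 for J147 and 726 for vehicle. Their log2 differences were -0.03 and -0.08, inside the neighbour SDs of 0.19 and 0.25. All 3 Pdgfra differences were negative, but 1421917_at and 1421916_at share their annotated target accession. The upstream 250 bases of Pdgfra are shown as those of a receptor with all 3 probe sets lower. They hold none of the motifs searched and so carry no capitals.
Pdgfra, chr5:75152001-75152250, plus strand: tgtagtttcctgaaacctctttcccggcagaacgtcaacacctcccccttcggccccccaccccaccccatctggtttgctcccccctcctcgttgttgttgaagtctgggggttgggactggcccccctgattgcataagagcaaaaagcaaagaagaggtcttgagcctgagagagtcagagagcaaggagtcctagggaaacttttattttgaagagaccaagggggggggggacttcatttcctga

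Of the 19 scored probe sets, 2 were more than 2 neighbour SDs lower with J147, 1436970_a_at of Pdgfrb and 1421917_at of Pdgfra, and 0 were as much higher. Of all scored probe sets 3.03% were as far below and 2.99% as far above. The neighbours give the scatter between genes on these 2 arrays and not the scatter between cultures, so this is a description. The 18S rRNA controls were also lower on the J147 array, by a median of -0.63 log2 units, and the fibroblast markers, genes of a cell type in which both receptors are abundant, had a median log2 difference of -0.06 over 6 scored genes, between -0.19 and 0.02. Tmem119, of the microglia list, had scaled intensities of 3212 for J147 and 4677 for vehicle, 1.46-fold lower with J147, a log2 difference of -0.54. The other scored gene of that list, Csf1r, had equal deposited values, at 631 for J147 and 633 for vehicle, and the other 5 listed markers lay at the floor. Labelling spikes were lower by their median of -0.15, with values between -0.40 and 0.29. Other values did not fall or rose. Hybridization spikes had a median of 0.13, and the 9 scored housekeeping genes had 0.00. Cspg4, on the marker lists of both receptors, had a log2 difference of 0.11. Tubb3 had 0.23, and the 2 scored astrocyte markers had a median of 0.08. The part of any of these in the receptor values was not tested. In a bulk culture, fewer cells with a transcript and less of it per cell cannot be told apart.

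**Figure D2:**
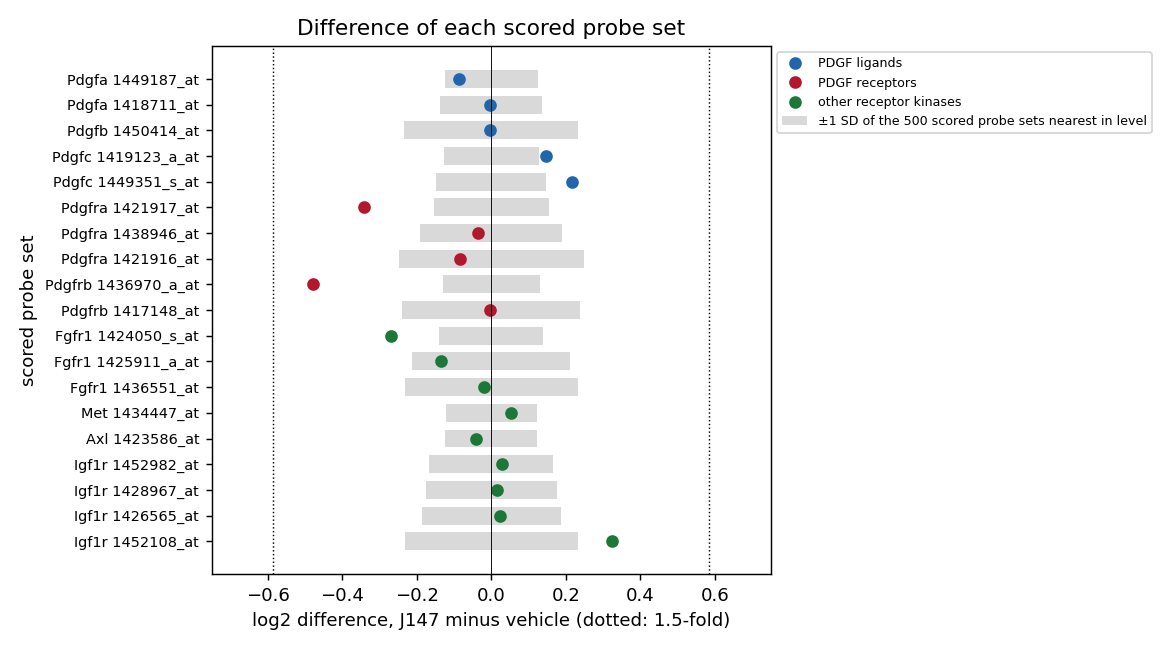
J147 minus vehicle on the log2 scale (horizontal axis) for the 19 scored probe sets (vertical axis), with a grey bar of ±1 SD of the differences of its 500 neighbours in level, centred on 0. All points lie inside the dotted lines at 1.5-fold, and Pdgfrb 1436970_a_at at -0.48 and Pdgfra 1421917_at at -0.34 lie farthest to the left.

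Fgfr1, the FGF receptor usual in mesenchymal and neural cells, had 3 scored probe sets, all with lower values for J147. Probe set 1424050_s_at had scaled intensities of 17060 for J147 and 20575 for vehicle, 1.21-fold lower with J147. Its log2 difference of -0.27 compares with a neighbour SD of 0.14, and 34 of 500 neighbours differed by at least as much. Probe set 1425911_a_at had 2207 for J147 and 2424 for vehicle, a log2 difference of -0.14 inside its neighbour SD of 0.21. Probe set 1436551_at had 287 for J147 and 291 for vehicle, a log2 difference of -0.02. Fgfr2, the FGF receptor typical of epithelia and glia, lay at the floor of the table with all 3 of its probe sets on each array. No change in Fgfr2 could be measured at that level, and its mRNA is not shown to be absent.

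Met, Axl and Igf1r were near equal on the arrays. Met encodes the receptor of hepatocyte growth factor, and its probe set 1434447_at had scaled intensities of 46206 for J147 and 44508 for vehicle, a fold of 1.04. The other Met probe set, 1422990_at, lay at the floor on each array. Axl encodes a receptor of the TAM family, which binds GAS6. Its probe set 1423586_at had 49436 for J147 and 50899 for vehicle, a fold of 0.971, and 1438621_x_at was at the lowest value. These log2 differences, 0.05 for Met and -0.04 for Axl, were smaller than the neighbour SD of 0.12 around each.

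Igf1r encodes the receptor through which IGF1 and IGF2 act on growth and survival, and 3 of its 5 probe sets gave nearly the same answer. Probe set 1452982_at had scaled intensities of 5551 for J147 and 5439 for vehicle, 1428967_at had 5133 for J147 and 5076 for vehicle, and 1426565_at had 4583 for J147 and 4510 for vehicle. Their folds were 1.02, 1.01 and 1.02. Each of the 3 shares its annotated accession with another Igf1r probe set, so they are not all independent evidence. Probe set 1452108_at stood apart from these at a low level, with 412 for J147 and 329 for vehicle, 1.25-fold higher with J147. That log2 difference of 0.33 was the highest of the 19, and 73 of 500 neighbours at this level, where the SD was 0.23, differed by at least as much. It shares its annotated accession with 1426565_at, whose log2 difference was 0.02. The fifth probe set, 1446303_at, lay at the floor on each array.

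**Figure D3:**
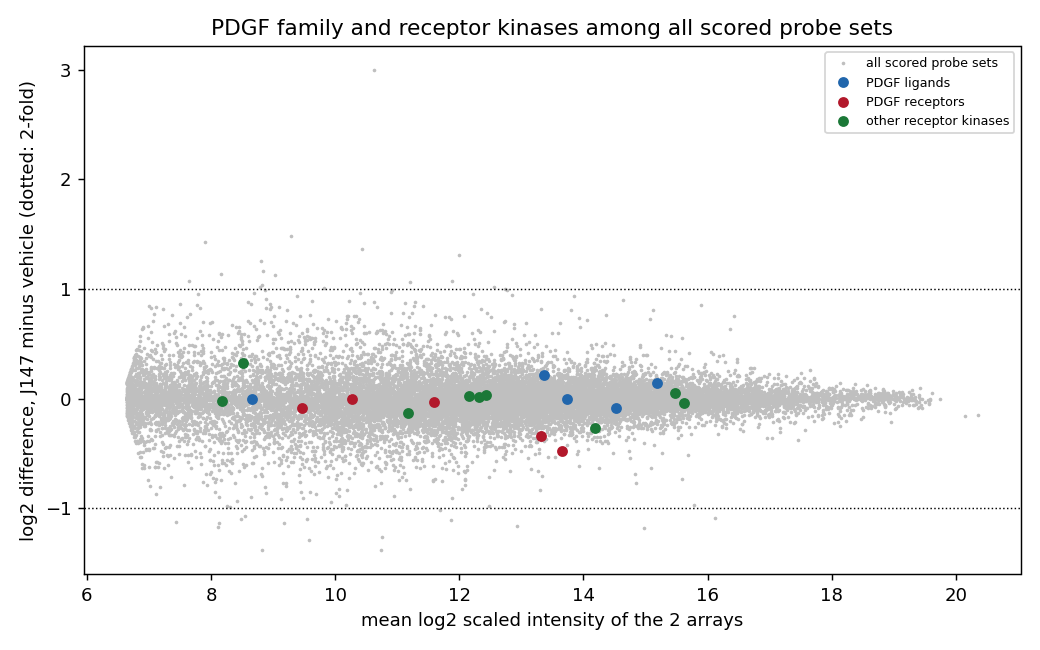
Log2 difference, J147 minus vehicle (vertical axis), against the mean log2 scaled intensity of both arrays (horizontal axis) for all 22545 scored probe sets (grey) and the 19 scored probe sets of the 10 genes (blue for ligands, red for PDGF receptors, green for other receptors). The coloured points lie between -0.48 and 0.33, far inside the dotted lines at 2-fold.

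The rest of the pathway was read from lists of genes, each gene by its brightest probe set, and 10611 genes were scored. The share of them with a rise of 1.5-fold or more was 0.556% and with a drop of that size 0.81%, with a median log2 difference of -0.00. Of the 9 scored genes described above, 0 passed 1.5-fold in either direction and the median was -0.04. Of 22 genes listed as other ligands of these receptors, 4 were scored and 0 passed. The FGF receptor ligand Fgf7, keratinocyte growth factor, had scaled intensities of 68373 for J147 and 58870 for vehicle, a fold of 1.16. Pros1, the protein S gene whose product binds TAM receptors, had 3133 for J147 and 3785 for vehicle, a fold of 0.828. Hgf, the ligand of MET, was low with equal deposited values, at 188 on each array.

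Of 14 scored genes among other receptor tyrosine kinases, 1 was at least 1.5-fold lower and 0 were higher, and the median log2 difference was -0.01. The gene was Ephb3, a receptor of ephrin-B ligands in cell contact signalling, with scaled intensities of 1299 for J147 and 2006 for vehicle, 1.54-fold lower with J147 by its single probe set. Of 17 scored co-receptors, decoys and ligand-binding proteins, 0 passed and the median was -0.00. The largest differences there were -0.41 for the glypican Gpc6, with scaled intensities of 426 for J147 and 566 for vehicle, and -0.32 for Igfbp4, which binds IGFs, with 65656 for J147 and 81982 for vehicle. The brightest Gpc6 probe set was not matched by the next, which was higher with J147 by a log2 difference of 0.23.

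Of 31 scored adaptors and effectors of the RAS-ERK and PI3K-AKT pathways, 0 passed 1.5-fold and the median was -0.02. The largest differences were -0.25 each for the RAS exchange factor Sos2, with scaled intensities of 6133 for J147 and 7272 for vehicle, and the small GTPase Rras, with 6487 for J147 and 7692 for vehicle. The list of attenuators and endocytic regulators of receptor kinases had 26 scored genes. Of these, 1 was at least 1.5-fold lower and 0 were higher, with a median of -0.01. This was Flrt2, with 1177 for J147 and 1851 for vehicle, 1.57-fold lower with J147. Flrt2 was listed as a transmembrane protein known to bind FGF receptors, and its drop is not that of a known attenuator. Its other 2 probe sets had log2 differences of -0.14 and -0.29. Over these lists the shares past 1.5-fold rest on 0 or 1 gene each.

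The last list held 8 transcription factors linked to PDGF promoters or EGR factors, of which 7 were scored, 3 passed 1.5-fold upward and 0 downward. It was put together with the large differences of Egr3 and Egr1 already known, so its median log2 difference of 0.57 is a description of that choice. Egr1, which is known to act on the human PDGFA promoter, had scaled intensities of 6414 for J147 and 2580 for vehicle, 2.49-fold higher, and Egr3 had 4452 for J147 and 558 for vehicle, 7.98-fold higher. Klf5, a Krüppel-like factor that acts on Pdgfa in smooth muscle, had 4370 for J147 and 2863 for vehicle, 1.53-fold higher. Another Klf5 probe set, 1451739_at, had 151 for J147 and 96 for vehicle, close to the lowest value. Probe sets 1421486_at of Egr3 and 1430255_at of Klf5 lay at the lowest value on both arrays. On the same arrays the differences of the 2 Pdgfa probe sets were -0.09 and -0.00, and later times were not measured.

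**Figure D4:**
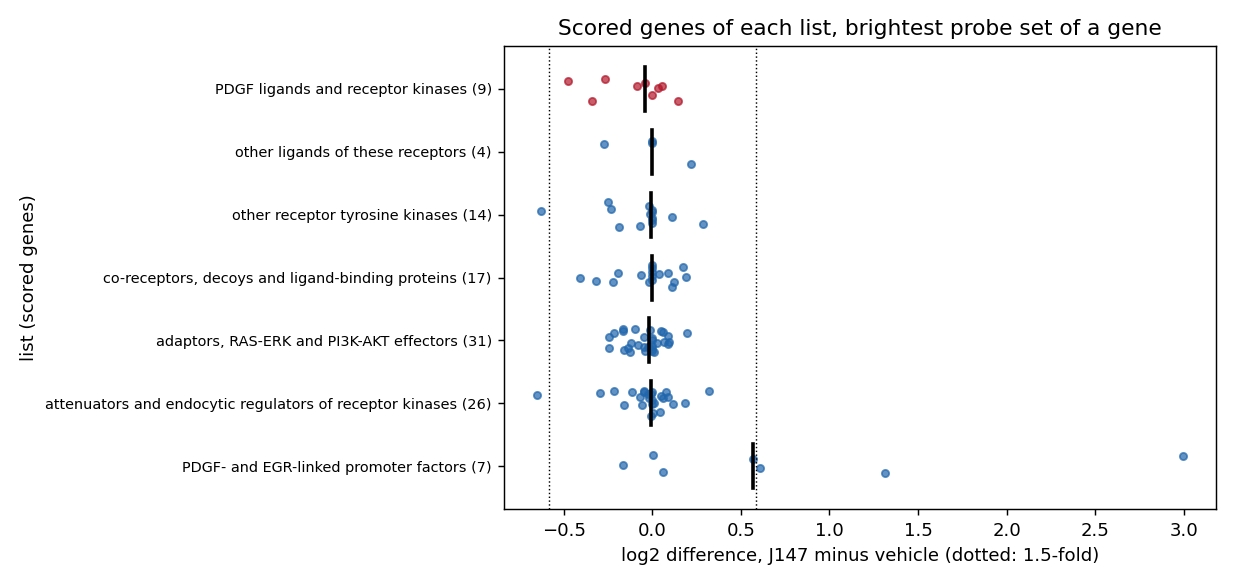
J147 minus vehicle on the log2 scale (horizontal axis), with a point for every scored gene by its brightest probe set, for the genes described here (red) and 6 lists of related genes (blue), with the number of scored genes in parentheses, the list median as a black bar and dotted lines at 1.5-fold. Ephb3 at -0.63 and Flrt2 at -0.65 lie left of the lower line, and only points of the transcription factor list lie right of the upper one.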

How the data were processed

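RNA was hybridized to 1 array per condition. Per the methods, the authors assessed quality with Affymetrix Expression Console version 1.0 and summarised the probes with gcRMA in R. The deposited values are log2 intensities of 45101 probe sets, 64 of them controls. The gcRMA version is not given in the sources read, and the deposited values were not scaled to a median of 100.

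Following the methods, intensities of each array were multiplied so that the median without controls was 100, and probe sets that averaged above 100 were scored. No test was made. Probe sets took their gene from a platform annotation in which 34945 have 1 symbol, 932 several and 9160 none. Symbols were checked against a RefSeq gene table through the Entrez number. The text names all probe sets of the 10 genes and, from each list, the scored genes at least 1.5-fold different or else the 2 with the largest differences, and the marker and housekeeping genes above the lowest value. Hgf, Epha2 and Errfi1 were named after their values were seen, as was the search for a CArG box added. The genes and lists were chosen with earlier results of these data known. Alternatives were the unscaled values, quantile normalization, a lowess curve (span 0.3), a pseudocount of 50, other intensity filters, probe set types and ways to combine probe sets, folds of 1.5 and 2.5, 200 neighbours and a tolerance of 0.1 log2 units at the lowest value. Python 3.11.15, numpy 2.4.6, pandas 2.3.3, statsmodels 0.14.6 and matplotlib 3.10.9 were used, and the calculations were tested on simulated data. The number of arrays limits the precision.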

Additional observations from a re-analysis of the deposited data

How the results depend on the processing

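No paired analysis was possible because each condition has 1 array. The alternatives gave 163 values, of which 158 were near those reported and 5 moved, where near means within 1.5 times for a count, within 1 neighbour SD for a probe set and within the SD of all scored probe sets divided by the square root of the number of genes for a median. The 5 all belong to the transcription factor list, whose median log2 difference of 0.57 became 0.45 with the pseudocount of 50, 0.31 with no intensity filter, 0.33 with means above 200, 0.65 without the suffixes _x_at, _s_at and _a_at and 0.31 with the probe sets of a gene averaged. In order of difference, the gene at the median had 0.57 and the next below it 0.06. The list held 8 genes with no filter and 6 above 200, and the median then fell inside this gap. That gene was Egr2, with scaled intensities of 233 for J147 and 157 for vehicle. Adding the pseudocount of 50 to both makes its log2 difference smaller. Without the suffixes the list held 5 genes, and the median equalled the log2 difference of Klf5 probe set 1451739_at. For the averaged probe sets the cause was not tested. The count of the 10 genes' probe sets past 2-fold was 0 under every alternative run, 1.5-fold included. The stricter fold, means above 200 and removal of the suffixed probe sets could only lower this count, so their 0 was fixed in advance. The unscaled values shift all log2 differences by the same small amount, inside the limits for near, so they could not move either. The 158 near values include these and are not all checks that could have failed. Their median log2 difference was -0.03 without probe sets of equal values, a setting chosen after seeing the data. Pdgfrb 1436970_a_at ranged from -0.48 to -0.47 and Pdgfra 1421917_at from -0.34 to -0.33. Signal limits the result, since 7 of the 26 probe sets lie at the lowest value.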

Other observations

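Igfbp4 encodes a protein that binds IGFs and limits their access to the IGF1 receptor. It has 6 scored probe sets, of which 5 had log2 differences between -0.32 and -0.17, and the sixth, 1421991_a_at, had -0.01 at scaled intensities of 1217 for J147 and 1222 for vehicle. Several of these probe sets carry suffixes for shared or cross-reacting sequence, so they are not independent. Fgf7 had both probe sets higher on the J147 array. Probe set 1438405_at is given above, and 1422243_at had scaled intensities of 21533 for J147 and 17404 for vehicle, a fold of 1.24. Epha2, an ephrin-A receptor, had 4074 for J147 and 3342 for vehicle, a fold of 1.22, and Errfi1, an inhibitor of the EGF receptor that is induced by growth factors, had 15036 for J147 and 12034 for vehicle, a fold of 1.25. These genes were picked after their values were seen, and no difference has a replicate.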
